A study of Mus musculus with 20 samples.

Results

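Lysosome and proton pump genes were examined in the brains of mice that lack the APP family in forebrain excitatory neurons. The set holds 50 of the 24421 genes in the deposited counts. Every gene whose symbol begins with Atp6v was taken, which gave 13 V1 subunits and 9 V0 subunits of the proton pump and 1 pseudogene. To these were added 27 genes from a list of names, namely 16 hydrolases, 3 other soluble proteins (Psap, Npc2 and Grn), 6 membrane proteins (Lamp1, Lamp2, Scarb2, Npc1, Cln3 and Mcoln1) and 2 regulators (Tfeb and Sqstm1). This rule uses no measured value, although the members were chosen with earlier results of these data known.

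Neocortical and hippocampal RNA of cTKO mice and their control littermates was sequenced. Each combination of genotype and region had 5 libraries, which made 20. The cTKO mice, labelled APP/APLP1/APLP2 -/-, carried floxed App, Aplp1 and Aplp2 together with Camk2a-Cre, a transgene that is active after birth in excitatory neurons of the forebrain. The controls, labelled wild type, carried the same floxed alleles without Cre, so they were not free of engineered alleles. Mice of both genotypes were C57BL/6J and 129 hybrids, male and female, and were 3 months old. By this design, interneurons, glia and vessels in cTKO tissue keep the 3 genes. RNA of the neocortex and RNA of the hippocampus were prepared with different kits, so kit and region cannot be told apart.

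The vacuolar proton pump uses ATP to move protons into lysosomes, endosomes and synaptic vesicles. Its V1 sector lies in the cytosol and hydrolyses ATP, and its V0 sector lies in the membrane and carries the protons. In a neuron, the same pump acidifies lysosomes, where hydrolases break down proteins, glycans and lipids, and energises synaptic vesicles for transmitter uptake. Lysosomal membrane proteins protect the limiting membrane, release ions and export the products of digestion. Inherited loss of many of these hydrolases and membrane proteins leads to storage of undigested material in neurons.

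Many lysosomal genes carry in their promoters an E-box, the palindrome CACGTG, within the longer palindrome TCACGTGA, to which TFEB and related factors are known to bind. RefSeq promoters on GRCm38.p6, from 250 bases before to 50 bases after the start of transcription, were found for 40 of the 50 genes. Both words read the same on either strand, and each longer word is also counted as a shorter one. The shorter word, CACGTG, was present in 15 of the 40 promoters (37.5%), against 9.17% of the promoters of 17224 genes in the counts. TCACGTGA was present in 8 of the 40 (20%), against 1.46% of all promoters. Among the genes that passed the filter on low counts, the shares were 42.9% of 35 promoters and 11.5% of all for the shorter word, and 22.9% and 2.04% for the longer one. By class, CACGTG was in 8 of 14 hydrolase promoters, 3 of 5 membrane protein promoters, 3 of 7 V0 promoters and 1 of 9 V1 promoters. It was in 0 of 3 promoters of the other soluble proteins and 0 of 2 of the regulators.

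The stretches around the longer word are shown for the 8 genes that had it, with the word in capitals, because these genes include several of those described below. Each is written 5′ to 3′ on the strand of the gene. Lamp1, which encodes a major glycoprotein of the lysosomal membrane, is shown as well because its promoter held CACGTG 4 times, here in capitals.
Atp6v1a (chr16:44139358-44139417, minus strand): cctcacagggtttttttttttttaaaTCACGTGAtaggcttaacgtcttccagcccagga
Atp6v0d1 (chr8:105566035-105566094, minus strand): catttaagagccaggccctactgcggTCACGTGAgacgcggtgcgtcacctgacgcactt
Atp6v0e (chr17:26676372-26676431, plus strand): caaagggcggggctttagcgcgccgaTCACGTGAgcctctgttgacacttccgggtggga
Gla (chrX:134601167-134601226, minus strand): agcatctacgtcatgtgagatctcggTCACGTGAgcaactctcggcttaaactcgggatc
Ctsd (chr7:142387893-142387952, minus strand): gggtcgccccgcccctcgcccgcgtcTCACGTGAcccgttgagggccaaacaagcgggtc
Ctsa (chr2:164833751-164833810, plus strand): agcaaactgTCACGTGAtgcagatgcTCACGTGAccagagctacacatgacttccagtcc
Mcoln1 (chr8:3500447-3500506, plus strand): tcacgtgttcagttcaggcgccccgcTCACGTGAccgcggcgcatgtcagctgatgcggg
Cln3 (chr7:126583325-126583384, minus strand): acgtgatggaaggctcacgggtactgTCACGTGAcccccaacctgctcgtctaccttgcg
Lamp1 (chr8:13159092-13159159, plus strand): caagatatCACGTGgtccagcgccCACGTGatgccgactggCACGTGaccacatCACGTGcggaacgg
A match of letters in these windows was not tested for binding, and no binding data were used here.

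Total counts ranged from 12169474 to 25331954 per library. Levels are given as CPM, that is, counts scaled to a common library size after TMM adjustment. The smallest level a library can show was taken as 3 counts, which came to between 0.118 and 0.247 CPM by total counts, without that adjustment. This limit covers counting error only. For App, Aplp1 and Aplp2, the genes deleted in cTKO mice, the genotypes did not overlap in either region. On the log2 scale App decreased by 2.10 in the neocortex and decreased by 1.78 in the hippocampus, Aplp1 decreased by 1.92 and decreased by 1.93, and the changes of Aplp2 were -1.60 and -1.25. A pair of cTKO libraries, number 5 of the neocortex and number 4 of the hippocampus, stood apart by the summed level of 9 genes of embryonic tissue, a list written after this pattern had been seen, at 1124 and 719 CPM against 75.2 to 406 CPM in the other 18 libraries, and results are given with and without them where they bear on a value. Hbb-y, an embryonic globin, was at 192.5 CPM and 120.9 CPM in these libraries.

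The lysosome and pump genes together held 0.848% of the counts in control neocortex and 0.888% in control hippocampus. Levels of different genes are compared here as CPM per kilobase of annotated exon. In control hippocampus, Atp6v1g2, a stalk subunit of V1, and Psap, the precursor of the saposins that help hydrolases reach their lipid substrates, were highest at 459 ± 17.1 and 459 ± 24.1 CPM per kilobase (SD, n = 5). Atp6v0e2 followed at 205 ± 9.01, Atp6v1b2 at 191 ± 10.3, Atp6v1e1 at 184 ± 4.37 and the protease gene Ctsd at 179 ± 14 CPM per kilobase. The first pair did not differ beyond its spread, and neither did neighbours in the group that followed. At the other end lay Naglu at 3.17, Gusb at 2.74 and Tfeb at 1.71 CPM per kilobase. Of the genes that passed the filter on low counts over all 20 libraries, Atp6v1c2 was lowest at 0.599 CPM per kilobase. The top of the order held pump subunits, a hydrolase and an activator of hydrolases, and the lower end held other hydrolases beside Tfeb and Atp6v1c2.

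Where a pump subunit is encoded by several genes, 1 gene held most of the expression per kilobase. Of the a subunits, which anchor the pump and carry the proton path, Atp6v0a1 held 90.3% ± 0.475 in control neocortex and 88.6% ± 0.734 in control hippocampus (SD, n = 5). Atp6v0a2 held 7.91% and 9.61%, Tcirg1, an a3 gene known from osteoclasts whose symbol is outside the rule, 1.72% and 1.76%, and Atp6v0a4, known from kidney, 0.0434% and 0.0596%. The neuronal Atp6v1g2 held 92.3% ± 0.777 and 90.5% ± 1.22 of the G subunits, with 7.65% and 9.5% for the broadly expressed Atp6v1g1. Atp6v0e2 held 98.6% of the e subunits in control neocortex and 97.9% in control hippocampus, the rest being Atp6v0e. Atp6v1c1 held 99.4% and 99.5% of the C subunits. The ranking of these isoforms was the same in the 4 groups.

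**Figure D1:**
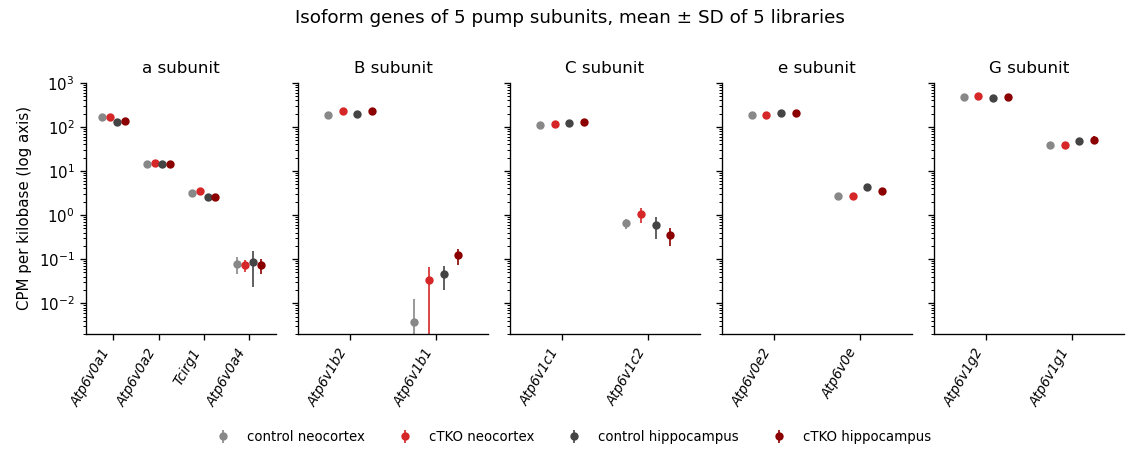
Level of each pump isoform gene by subunit, in CPM per kilobase of annotated exon on a log axis, as the mean with SD over the 5 libraries of each genotype and region. Atp6v0a1, Atp6v1g2, Atp6v0e2 and Atp6v1c1 stand above the other genes of their subunit in each of the 4 groups.

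Filtering at a CPM above 1 in at least 5 libraries left 43 of the 50 genes in the neocortex and in the fit of all 20 libraries, and 42 in the hippocampus, where Atp6v1c2 did not pass. The 7 others were near or at 0. Atp6v0d2 and Atp6v1g3 had at most 1 count in a library, Atp6v1e2 at most 3, Atp6v0a4 from 1 to 12 and Atp6v1b1, known from acid-secreting cells of the kidney, from 0 to 14. Atp6v0c, the gene of the proton-carrying ring, was listed at 0 to 5 counts, and Atp6v0c-ps2 at 0. Of all 100-base stretches of the Atp6v0c transcript, 24.5% also occur in Atp6v0c-ps2, and copies outside annotated transcripts were not searched, so the counts of this subunit are uncertain and say nothing of its level. The annotation also gives Ctsd shared sequence with Gm49369 over 35% of such stretches, Ctsl with Gm47123 and Gm49230 over 25.4%, Ctsb with Fdft1 over 14.5% and Npc1 with Rmc1 over 6.24%, and it is not known to which gene, if any, reads from there were assigned.

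The first question was whether loss of the APP family changed these genes in the neocortex. None of the 43 genes tested passed an FDR of 0.05 with edgeR's quasi-likelihood test and Benjamini-Hochberg adjustment, by which 0.188% of all 13843 genes were called. The lowest FDR was 0.141, for Gla. At an unadjusted p under 0.05, 4 of the 43 were higher in cTKO mice (Atp6v1a, Atp6v1b2, Atp6v1c2 and Gla) and 0 were lower, against 5.57% of all genes higher and 4.86% lower. DESeq2 called 1, Gla. The log2 fold changes (LogFC) of the pump subunits had a median of 0.0884, against 0.00900 over all genes. They were above 0 for 14 of 16, including 10 of 10 V1 subunits, against 53.1% of all genes. Among these 10, and among the 4 genes at an unadjusted p under 0.05, is Atp6v1c2, a gene near the filter. It was above 1 CPM in more cTKO than control libraries. Its place in these counts therefore rests partly on the group where it was higher. For the hydrolases the median was 0.0107, with 8 of 16 above 0, and for the membrane proteins it was -0.0266, with 2 of 6 above 0.

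Gla encodes alpha-galactosidase A, which removes terminal galactose from glycolipids. It was at 13.2, 11.3, 12.7, 9.97 and 10.4 CPM in control neocortex and at 16.2, 13.8, 16.3, 14.0 and 16.2 CPM in cTKO neocortex. The cTKO libraries all lay above the controls, which held for 0.766% of all genes tested in the neocortex, while for 1.60% they all lay below. Its LogFC was 0.41 ± 0.102 (SE), with an unadjusted p of 0.00136 from edgeR and an FDR of 0.141, and DESeq2 gave an FDR of 0.0365. The other 15 hydrolases did not reach an unadjusted p of 0.05, the next being Gaa, the glucosidase of lysosomal glycogen, at a LogFC of 0.15 ± 0.0763 (SE), and the membrane protein nearest to it was Lamp2 at 0.10 ± 0.0629 (SE).

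Atp6v1a and Atp6v1b2 encode the A and B subunits that form the ATP-hydrolysing head of V1. Atp6v1a was at 489, 457, 440.2, 396 and 414 CPM in control neocortex and at 567, 539.6, 469, 592 and 429 CPM in cTKO neocortex. Atp6v1b2 was at 593, 500.4, 517, 471 and 505 CPM in control neocortex and at 739, 619, 630.1, 711 and 473 CPM in cTKO neocortex. For both genes, library 5 was the lowest of the cTKO libraries and overlapped the controls. LogFC was 0.25 ± 0.0853 (SE, FDR 0.316 from edgeR) for Atp6v1a and 0.30 ± 0.0992 (SE, FDR 0.301) for Atp6v1b2. Library 5 is one of the pair that stood apart, and without it the LogFC of Atp6v1b2 was 0.38 with an FDR of 0.0309, the 1 call that leaving out a library made among these genes in the neocortex, and that of Atp6v1a was 0.30 with an FDR of 0.0952. Summed over the pump subunits, this library held 3871 CPM, against 4474 to 5022 CPM in the other cTKO libraries and 4021 to 4226 CPM in the controls. Its summed level of 6 markers of inhibitory neurons was 901 CPM, against 1149 to 1191 CPM in the other cTKO libraries and 887 to 1023 CPM in the controls, so that 4 cTKO libraries lay above the controls and library 5 among them. Its levels of microglial markers (292 CPM over 12 genes) and astrocytic markers (4863 CPM over 8 genes) were the lowest of the 10 neocortical libraries. The part of cell composition in the pump values was not tested.

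Atp6v1c2, a C subunit that is scarce in brain, was at 1.43, 1.25, 0.823, 1.17 and 0.764 CPM in control neocortex and at 2.57, 2.25, 0.944, 1.33 and 1.78 CPM in cTKO neocortex. The genotypes overlapped, and the LogFC was 0.69 ± 0.293 (SE, FDR 0.431 from edgeR). Its exons overlap those of Pdia6 on the opposite strand, although 0% of the 100-base stretches of its longest coding transcript occur in another gene. Other pump subunits and lysosomal genes had smaller changes in the neocortex. LogFC was 0.15 for Atp6v0b, 0.14 for Atp6v1e1, 0.04 for Atp6v0a1, 0.06 for Atp6v1g1, 0.14 for Atp6v1g2, 0.07 for Atp6v0d1, 0.04 for Ctsd, 0.06 for the protease gene Ctsb and 0.08 for Psap. For Lamp1 it was 0.03, for the cholesterol transporter gene Npc1 -0.03, for Grn, which encodes progranulin, -0.03, and for Tfeb, a transcription factor of lysosomal genes, 0.00773. None of these passed the test, and the median SE over the 43 genes was 0.0738.

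**Figure D2:**
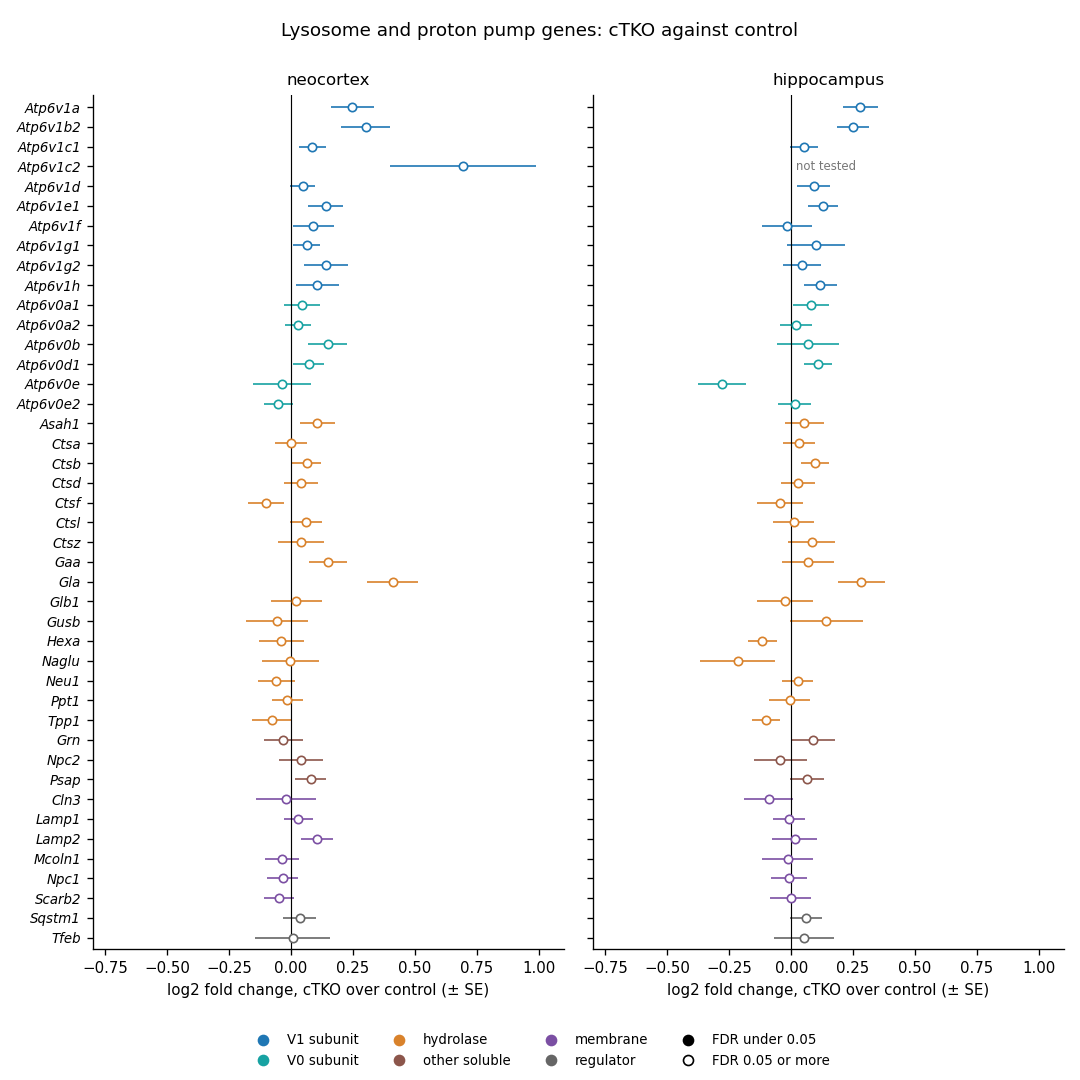
LogFC of cTKO against control libraries with SE (edgeR, 5 against 5) for each tested gene, with the neocortex and the hippocampus in separate panels and the classes in colour. No circle is filled, since no gene had an FDR under 0.05, and most pump subunits lie to the right of 0 in both regions while hydrolases lie on both sides. Of all genes tested, 53.1% in the neocortex and 51.6% in the hippocampus had a LogFC above 0.

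In the hippocampus, too, 0 of the 42 genes tested passed an FDR of 0.05 with edgeR's quasi-likelihood test, by which 0.489% of 13702 genes were called, and DESeq2 called 2, Atp6v1a and Atp6v1b2. At an unadjusted p under 0.05, 3 genes were higher in cTKO mice (Atp6v1a, Atp6v1b2 and Gla), against 6.13% of all genes, and 1 was lower (Atp6v0e), against 5.88%. The median LogFC was 0.0793 for the pump subunits, with 13 of 15 above 0, against 0.00492 for all genes, with 51.6% above 0. It was 0.0277 for the hydrolases, with 10 of 16 above 0, and -0.00873 for the membrane proteins, with 1 of 6 above 0. Atp6v1c2, whose mean was lower in cTKO than in control hippocampus, did not pass the filter and is not among the 15 pump subunits.

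Atp6v1a was at 649.9, 646, 585, 652 and 642 CPM in control hippocampus and at 710.2, 863.5, 700.3, 778 and 801 CPM in cTKO hippocampus. Atp6v1b2 was at 573, 531, 497, 533 and 558.5 CPM in control hippocampus and at 676, 687, 614, 608 and 615 CPM in cTKO hippocampus. Gla was at 12.7, 12.5, 12.6, 12.3 and 12.6 CPM in control hippocampus and at 16.03, 13.3, 18.3, 15.0 and 13.6 CPM in cTKO hippocampus. For these 3 genes every cTKO library was above every control library, which held for 1.90% of all genes tested in the hippocampus, while for 1.23% every cTKO library was below.

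LogFC in the hippocampus was 0.28 ± 0.0696 (SE, FDR 0.118 from edgeR) for Atp6v1a, 0.25 ± 0.0633 (SE, FDR 0.125) for Atp6v1b2 and 0.28 ± 0.0957 (SE, FDR 0.254) for Gla. An exact two-sided permutation test of log2 CPM gave 0.00794 for each of the 3, the smallest p that 5 libraries against 5 can give, not adjusted for the genes tested. This p follows from the lack of overlap between the genotypes and adds nothing to it. DESeq2 gave an FDR of 0.00623 for Atp6v1a and 0.00442 for Atp6v1b2, and 0.163 for Gla. Without cTKO library 4, the other library that stood apart, the edgeR FDR was 0.156 for Atp6v1a, 0.123 for Atp6v1b2 and 0.299 for Gla.

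Atp6v0e, the minor e subunit, was at 13.3, 17.3, 17.8, 16.2 and 16.5 CPM in control hippocampus and at 12.4, 12.6, 14.7, 14.4 and 12.8 CPM in cTKO hippocampus. Control library 1 lay among the cTKO libraries and the other controls lay above them. The LogFC was -0.28 ± 0.0961 (SE, FDR 0.268 from edgeR). In the neocortex the gene was at 9.14 to 11.3 CPM in controls and 8.66 to 12.7 CPM in cTKO mice, with no such gap. Hexa, which encodes the alpha chain of beta-hexosaminidase, had a LogFC of -0.12 ± 0.0594 (SE) in the hippocampus, and Tpp1, a peptidase gene, one of -0.10 ± 0.0559 (SE), neither below an unadjusted p of 0.05. LogFC in the hippocampus was 0.08 for Atp6v0a1, 0.10 for Atp6v1g1, 0.04 for Atp6v1g2, 0.11 for Atp6v0d1, 0.03 for Ctsd, 0.10 for Ctsb, 0.06 for Psap, 0.09 for Grn, -0.00768 for Lamp1, -0.00977 for Npc1 and 0.05 for Tfeb.

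**Figure D3:**
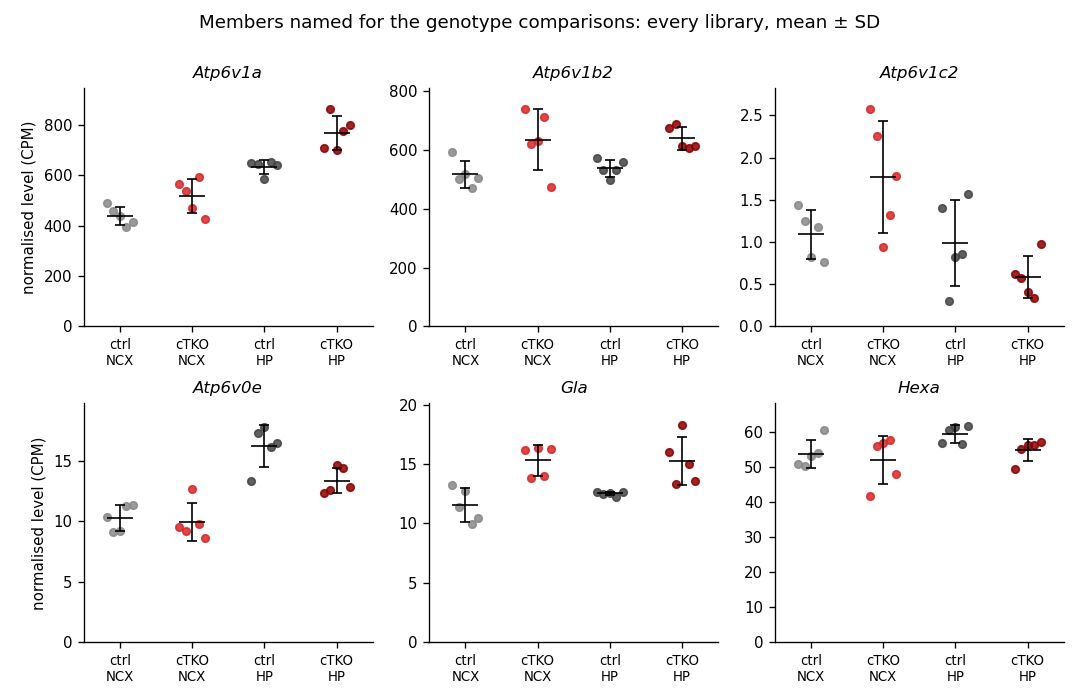
CPM of Atp6v1a, Atp6v1b2, Atp6v1c2, Atp6v0e, Gla and Hexa in each library (dots) with the mean and SD of each genotype and region, on axes that start at 0. In the hippocampus the cTKO dots of Atp6v1a, Atp6v1b2 and Gla lie above the control dots, and in the neocortex this holds for Gla.

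Cell type markers were compared beside these values, since in bulk tissue fewer cells of a type and less RNA per cell cannot be told apart. Of 12 microglial, 8 astrocytic, 8 oligodendrocytic, 6 endothelial, 6 excitatory and 6 inhibitory neuronal markers, 0 were called by genotype in either region with edgeR. The summed microglial level was 344 to 373 CPM in control and 292 to 371 CPM in cTKO neocortex, and 404 to 465.5 CPM in control and 356 to 496 CPM in cTKO hippocampus. The summed inhibitory neuronal level was 887 to 1023 CPM in control and 901 to 1191 CPM in cTKO neocortex, where 4 of 5 cTKO libraries lay above the controls, and 722 to 904 CPM in control and 803 to 1019 CPM in cTKO hippocampus. The summed astrocytic level in the neocortex was lower in cTKO mice (4863 to 5250 CPM) than in controls (5248 to 5759 CPM), with an overlap at the edge, and in the hippocampus it was 5862 to 7888 CPM in controls and 5087 to 8461 CPM in cTKO mice. The part of these differences in the pump values of the neocortex was not tested. The summed excitatory level was 9302 to 10367 CPM in control neocortex. In cTKO neocortex it was 8160, 9001, 8750 and 8342 CPM in libraries 1, 2, 4 and 5, below the controls, and 10540 CPM in library 3, above them. In the hippocampus it was 10768 to 12157 CPM in controls and 9413 to 11650 CPM in cTKO mice. The part of the excitatory difference in the pump values was not tested either. The 7 markers of the choroid plexus all had a LogFC below 0 in the hippocampus, where 51.6% of all genes were above 0. Their median LogFC was -1.72, and 0 were called (lowest FDR 0.344 from edgeR). Their summed level was 76.6 to 2730 CPM in control and 113 to 605 CPM in cTKO hippocampus. The part of this difference in the pump values was not tested. No marker of these lists was at 0 in every library of a group.

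Whether the response to genotype differed between the regions was tested with the interaction in a fit of all 20 libraries. With edgeR 0 of the 43 genes passed an FDR of 0.05, by which 0.0564% of 14192 genes were called, and DESeq2 called 0. At an unadjusted p under 0.05, which 3.75% of all genes reached, there was 1 gene, Atp6v1c2. It was at 1.41, 0.301, 0.817, 0.856 and 1.57 CPM in control hippocampus and at 0.615, 0.569, 0.412, 0.335 and 0.974 CPM in cTKO hippocampus. Its mean was lower in cTKO than in control hippocampus (0.581 and 0.990 CPM) and higher in cTKO than in control neocortex (1.77 and 1.09 CPM). The interaction was -1.43 ± 0.524 (SE, FDR 0.983 from edgeR) on the log2 scale. These levels lie close to the smallest one a library can show.

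The hippocampus was then compared with the neocortex within each genotype in the same fit of 20 libraries, which gives each region's own expression of lysosome and pump genes. In control mice, 12 of the 43 genes were higher in the hippocampus and 3 were lower at an FDR of 0.05, which is 27.9% and 6.98%, against 26.3% and 24.8% of all 14192 genes. In cTKO mice, 13 were higher and 4 lower (30.2% and 9.3%), against 25.8% and 23.8% of all genes. Called in both genotypes were 12 genes, 9 higher and 3 lower, which is 80% of those called in controls and 70.6% of those called in cTKO mice. Of all genes, 51.1% were called in controls and 49.6% in cTKO mice. The share of all genes called in both was not taken, so the 80% and 70.6% cannot be judged against it. In controls the regions did not overlap for 10 genes that were higher and 3 that were lower in the hippocampus, against 22.1% and 21.6% of all genes tested. The share of higher genes was near that of all genes, and the share of lower genes was below it. The median LogFC in controls was 0.12 for the pump subunits, 0.0675 for the hydrolases and 0.0273 for the membrane proteins, against 0.0161 for all genes.

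Of the V1 subunits, Atp6v1a, Atp6v1f and Atp6v1g1 were higher in the hippocampus in both genotypes. In controls, Atp6v1a had a mean of 439.5 CPM in the neocortex and 635 CPM in the hippocampus, a LogFC of 0.53 ± 0.083 (SE, FDR 1.72e-05), and the LogFC in cTKO mice was 0.57 (FDR 7.88e-06). Atp6v1f, the central shaft subunit that turns with ATP hydrolysis, was at 49.5, 47.3, 47.3, 49.9 and 50.5 CPM in control neocortex and at 64.1, 76.5, 71.7, 62.5 and 62.9 CPM in control hippocampus. The regions did not overlap in controls, with a LogFC of 0.47 ± 0.0984 (SE, FDR 4.49e-04), and in cTKO mice it was 0.36 (FDR 0.00391). Atp6v1g1, the minor G isoform, had a LogFC of 0.33 in controls (FDR 0.00593) and 0.38 in cTKO mice (FDR 0.00225). Atp6v1c1 was called in controls at a LogFC of 0.15 (FDR 0.0308), but its FDR was 0.06 with the library number as a block, under which Atp6v1h was called instead (LogFC 0.17, FDR 0.0411).

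Among V0 subunits the regions differed in opposite directions. Atp6v0a1, the main a subunit, was at 669, 651, 672.5, 663 and 720.1 CPM in control neocortex and at 544, 526, 497, 540.3 and 553 CPM in control hippocampus. Every hippocampal control library was below every neocortical one, with a LogFC of -0.34 ± 0.0766 (SE, FDR 7.54e-04) in controls and -0.30 ± 0.0765 (SE, FDR 0.00243) in cTKO mice. The minor Atp6v0e went the other way, from a mean of 10.3 to 16.2 CPM in controls, a LogFC of 0.66 ± 0.106 (SE, FDR 2.40e-05), and 0.42 in cTKO mice (FDR 0.00209). Atp6v0b, a proteolipid of the proton-carrying ring, was at 104 to 119.8 CPM in the neocortex and 132 to 164 CPM in the hippocampus of controls. Its LogFC was 0.37 in controls (FDR 0.00963) and 0.29 in cTKO mice (FDR 0.0357), where it was 0.26 with an FDR of 0.0564 without the 2 libraries that stood apart. Atp6v1c2 had a LogFC of -1.61 ± 0.37 (SE, FDR 0.00107) in cTKO mice and -0.18 (FDR 0.712) in controls. In cTKO mice the regions overlapped, and the hippocampal libraries held 7 to 23 counts, at 0.335 to 0.974 CPM. The gene entered this fit through libraries of the other groups and did not pass the filter when the 10 cTKO libraries were fitted alone. The call was therefore not read as a difference between regions.

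**Figure D4:**
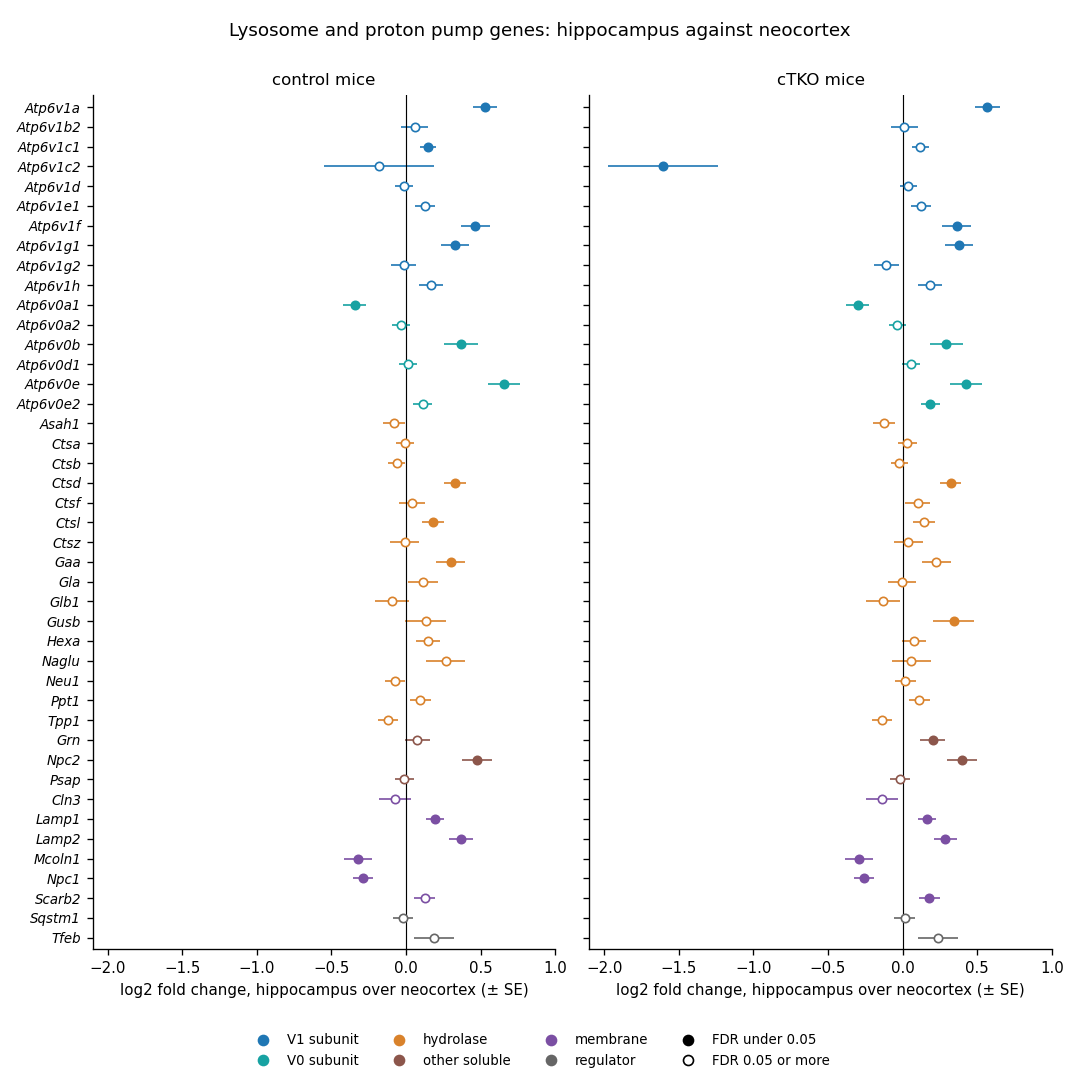
LogFC of hippocampus against neocortex with SE (edgeR, all 20 libraries in 1 fit) for each tested gene, with controls and cTKO mice in separate panels, classes in colour and filled circles for an FDR under 0.05. Atp6v0a1, Npc1 and Mcoln1 are filled to the left of 0 in both genotypes, and Atp6v1a, Atp6v0e, Npc2 and Ctsd to the right.

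Of the 16 hydrolases, 3 were higher in the hippocampus in controls (Ctsd, Gaa and Ctsl) and 2 in cTKO mice (Ctsd and Gusb). These shares, 18.8% and 12.5%, were below the 26.3% and 25.8% of all genes that were higher. In either genotype 0 hydrolases were lower, against 24.8% of all genes in controls and 23.8% in cTKO mice. Ctsd, an aspartic protease and one of the most abundant lysosomal enzymes, was at 293, 297, 312.5, 306 and 309 CPM in control neocortex and at 356.5, 404, 421, 369 and 355 CPM in control hippocampus. The regions did not overlap in controls, and the LogFC was 0.33 ± 0.0713 (SE, FDR 5.67e-04) in controls and 0.32 ± 0.0712 (SE, FDR 7.38e-04) in cTKO mice. Gaa had a LogFC of 0.30 in controls (FDR 0.0135) and 0.22 in cTKO mice (FDR 0.061). Ctsl, a cysteine protease, was just inside the threshold in controls (LogFC 0.18, FDR 0.0415). Gusb, the beta-glucuronidase gene, had 1 cTKO hippocampal library at 16.3 CPM with the other 4 at 9.57 to 10.6 CPM. The high one was library 4, and without the pair of libraries that stood apart the LogFC was 0.27 (FDR 0.0281) in place of 0.34 (FDR 0.0415). Fitted in the 10 cTKO libraries alone, it was not called (FDR 0.152).

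The cholesterol exporters of the lysosome went in opposite directions. Npc2, the soluble carrier that hands cholesterol on, was at 35.6, 38.1, 34.9, 36.6 and 34.3 CPM in control neocortex and at 46.2, 56.4, 59.3, 42.8 and 44.8 CPM in control hippocampus. Npc1, the membrane protein that receives it, was at 88.0, 107.3, 97.9, 98.8 and 94.6 CPM in control neocortex and at 74.1, 84.8, 76.3, 82.8 and 79.6 CPM in control hippocampus. Neither gene overlapped between the regions in controls. LogFC was 0.48 ± 0.1 (SE, FDR 4.34e-04) for Npc2 and -0.29 ± 0.067 (SE, FDR 0.00103) for Npc1 in controls, and 0.40 (FDR 0.00214) and -0.26 (FDR 0.00272) in cTKO mice.

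Of the membrane proteins, Lamp1 and Lamp2 were higher in the hippocampus and Mcoln1 was lower. Lamp2, which takes part in fusion with autophagosomes and in chaperone-mediated uptake, was at 80.3 to 90.1 CPM in the neocortex and 100 to 129.5 CPM in the hippocampus of controls, a LogFC of 0.37 ± 0.0781 (SE, FDR 4.51e-04), and 0.29 in cTKO mice (FDR 0.00409). Lamp1 had a LogFC of 0.19 in controls (FDR 0.0113) and 0.16 in cTKO mice (FDR 0.0312). Mcoln1, the gene of a lysosomal cation channel that releases calcium, was at 61.0 to 73.9 CPM in the neocortex and 45.6 to 57.8 CPM in the hippocampus of controls. Its LogFC was -0.32 ± 0.092 (SE, FDR 0.00582) in controls and -0.29 ± 0.0917 (SE, FDR 0.0113) in cTKO mice. Scarb2, a receptor that brings glucocerebrosidase to the lysosome, and Grn were called in cTKO mice and not in controls, at a LogFC of 0.18 (FDR 0.0422) and 0.20 (FDR 0.0494), as was Atp6v0e2 at 0.18 (FDR 0.0211). When the 10 cTKO libraries were fitted alone, the FDR was 0.165 for Scarb2, 0.151 for Grn and 0.103 for Atp6v0e2, so that these calls ended. Grn was at 0.13 with an FDR of 0.253 without the pair of libraries that stood apart. That these responses differed from controls was not shown, since the interaction was called for 0 of the genes.

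Several of the most abundant genes were nearly level between the regions. LogFC in controls was -0.02 for Atp6v1g2 (FDR 0.889), 0.02 for Atp6v0d1 (FDR 0.851), -0.06 for Ctsb (FDR 0.39), -0.01 for Psap (FDR 0.911) and -0.02 for Sqstm1, the gene of an autophagy receptor (FDR 0.83). Tfeb had a LogFC of 0.19 in controls (FDR 0.258) and 0.24 in cTKO mice (FDR 0.148), so 0 of the 2 regulators were called in either genotype.

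**Figure D5:**
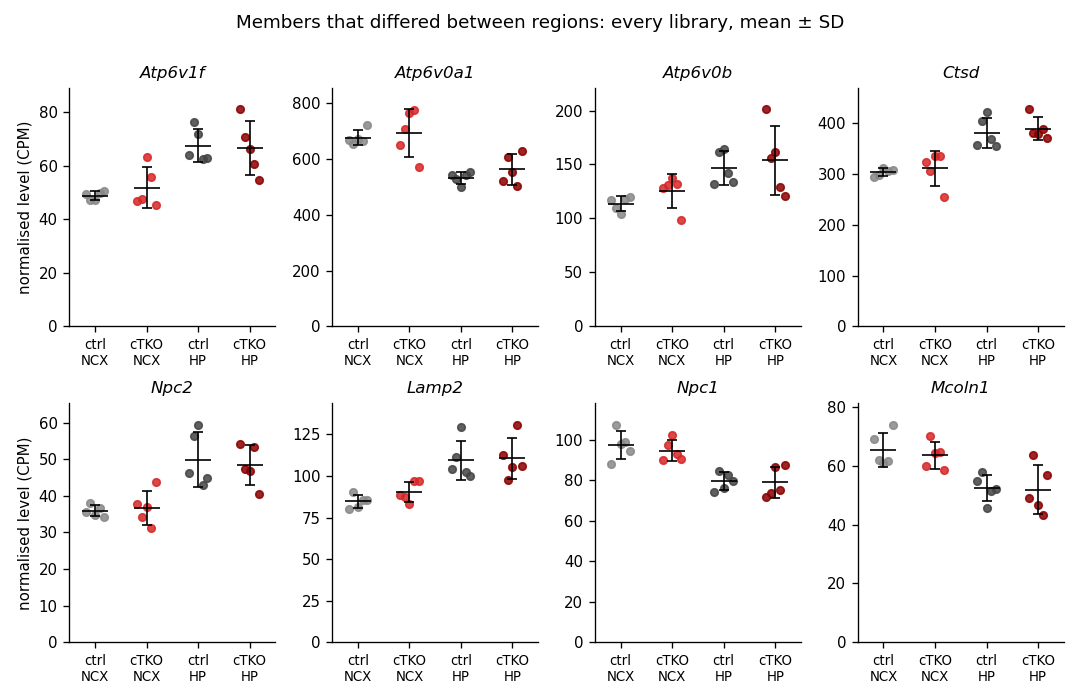
CPM of Atp6v1f, Atp6v0a1, Atp6v0b, Ctsd, Npc2, Lamp2, Npc1 and Mcoln1 in each library (dots) with the mean and SD of each genotype and region, on axes that start at 0. Control dots of the 2 regions do not overlap for these 8 genes, with Atp6v0a1, Npc1 and Mcoln1 lower and the other 5 higher in the hippocampus, beside 21.6% of all genes lower and 22.1% higher without overlap.

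The regions also differed in cell type markers. In controls, 6 of 12 microglial markers were higher in the hippocampus and 0 lower, as were 6 of 8 astrocytic markers and 7 of 7 markers of the choroid plexus, the epithelium in the ventricles. All marker counts here are calls at an FDR of 0.05, by which 26.3% of all genes were higher and 24.8% lower. The summed choroid plexus level was 9.47 to 14.9 CPM in control and 8.01 to 16.4 CPM in cTKO neocortex, and 76.6 to 2730 CPM in control and 113 to 605 CPM in cTKO hippocampus. The summed astrocytic level was 5248 to 5759 CPM in the neocortex and 5862 to 7888 CPM in the hippocampus of controls, and the microglial levels are given above. Of the 6 endothelial markers 4 were lower in the hippocampus in controls, as were 3 of 6 inhibitory neuronal markers, and of 6 excitatory markers 3 were higher and 2 lower. Without control hippocampal library 3, the one at 2730 CPM, the LogFC in controls was 0.41 for Npc2 (FDR 0.00203), 0.29 for Ctsd (FDR 0.00254) and 0.30 for Lamp2, and Ctsl lost its call at 0.13 (FDR 0.139). The part of cell composition in the regional differences was not tested.

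Other lysosomal genes were read from 5 further lists. With edgeR, 0 of them were called by genotype in either region, against 0.188% of all genes in the neocortex and 0.489% in the hippocampus. Calls between regions are at an FDR of 0.05 in controls, where 26.3% of all genes were higher in the hippocampus and 24.8% lower. In the order given here, 40.7%, 35.3%, 20%, 16.7% and 41.7% of the genes tested in each list were higher. The shares that were lower were 14.8%, 17.6%, 30%, 8.33% and 25%. In both directions the lists lay on either side of the share of all genes. Among 27 other hydrolases, 11 were higher and 4 lower in control hippocampus, with the largest changes in Galns, a sulfatase of keratan sulfate (LogFC 0.61 in controls, 0.65 in cTKO mice), and Idua, which degrades heparan and dermatan sulfate (-0.61 and -0.69). Among 17 other membrane proteins that were tested, 6 were higher and 3 lower. The tetraspanin gene Cd63 rose from 26.6 ± 2.42 to 49.2 ± 6.64 CPM (SD, n = 5) in controls, a LogFC of 0.89, and Slc38a9, an arginine sensor for mTORC1, had one of -0.78. In cTKO mice the values were 0.84 and -0.74. Of 10 accessory genes of the pump, 2 were higher and 3 lower. Atp6ap1l was at 7.80 ± 1.80 CPM in control neocortex and 0.751 ± 0.328 CPM in control hippocampus (SD, n = 5), a LogFC of -3.36, and at -3.12 in cTKO mice. Rogdi, a homologue of a yeast pump assembly factor, had a LogFC of 0.65 in controls and 0.60 in cTKO mice. Of 12 genes that deliver proteins to lysosomes, 2 were higher and 1 lower, among them Vps35 of the retromer (0.50 and 0.49) and the mannose 6-phosphate receptor gene M6pr (0.41 and 0.33). Of 12 genes of nutrient sensing and transcription, 5 were higher and 3 lower, among them the Ragulator genes Lamtor5 (0.53 and 0.55) and Lamtor1 (0.38 and 0.40).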

How the data were processed

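RNA was measured in 20 libraries of mouse neocortex and hippocampus, 5 for each genotype and region, and samples were grouped by the genotype and tissue in their labels. Per the methods, both regions came from 5 cTKO mice and 5 controls. The authors prepared poly-A libraries, read them as 100-base single ends, mapped them to mm10 with STAR 2.5.4a, obtained gene counts with HTSeq and deposited these raw counts. The version, annotation and strand setting of HTSeq are not given in the sources used here. No column was left out. Replicates differed beyond sampling noise, with a chi-square per degree of freedom of 3.85 to 47.0 between libraries of a group.

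Genotypes were compared in each region, and regions within each genotype and the interaction in 1 fit of 20 libraries, with edgeR 4.0.16 in R 4.3.3 (TMM, a filter at CPM above 1 in 5 or more libraries, glmQLFit and glmQLFTest, Benjamini-Hochberg adjustment over all genes tested). Exact permutation tests used log2 CPM with a prior count of 2. Exon lengths and shared sequence are from GENCODE M21, and positions and promoters from RefSeq on GRCm38.p6. Of 48 promoter entries, 44 ended in bases found in an annotated transcript. Library numbers paired the regions in controls, by correlations of deviations from group means of 0.13 to 0.335, each best for its own number. The fits were run on simulated counts of independent libraries with the same spread for every gene. That run checks the code and says nothing of error rates in the real libraries.

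The members, gene lists and tests were chosen with earlier results of these data known. Genes are named where they are among the 3 pump subunits or 3 other genes with the smallest p in a genotype comparison, among the 3 largest regional changes of a class in controls, among the 2 largest of another list, on a fixed list of 12 abundant or regulatory genes, or below the filter. Atp6v1c1, Atp6v1e1, Atp6v1h, Atp6v0e2, Gusb, Scarb2 and Sqstm1 were named after their values were seen.

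Alternatives were DESeq2 1.42.0, its size factors in edgeR, 2 other filters, fits over other sets of libraries, the library number as a block, and each library left out.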

Additional observations from a re-analysis of the deposited data

Results flagged for a closer look

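In 100 groups of 5 libraries, 8 held a library farther from the nearest other than Dixon's 95% limit allows, a limit that chance passes in about 1 group of 20. In cTKO neocortex library 5, Atp6v0b was at 98.18 CPM, where the other libraries lay at 128.2 to 137.4 CPM, and Psap at 1111 CPM against 1373 to 1407 CPM. This library is one of the pair with high embryonic genes and had the lowest pump level of the neocortex. In cTKO hippocampus library 1, Atp6v1g1 was at 78.24 CPM against 51.85 to 54.53 CPM, and Hexa at 49.37 CPM against 55.17 to 57.3 CPM. Without that library the LogFC of Atp6v1g1 between genotypes was -0.03 in place of 0.10. Atp6v1a was at 584.6 CPM in control hippocampus library 3 against 641.9 to 652.2 CPM, and this is the library with the highest choroid plexus level. Atp6v0e was at 12.65 CPM in cTKO neocortex library 3 against 8.663 to 9.754 CPM. Grn was at 66.53 CPM in cTKO neocortex library 4 against 53.6 to 55.09 CPM. Ctsb was at 652.6 CPM in control neocortex library 3 against 606.3 to 619.4 CPM. The cause of these gaps was not tested.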

How the results depend on the processing

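With DESeq2 the count of called genes by genotype was 1 in the neocortex (Gla, LogFC 0.40, FDR 0.0365) and 2 in the hippocampus (Atp6v1a, FDR 0.00623, and Atp6v1b2, FDR 0.00442) in place of 0, and over all genes DESeq2 called 221 in place of 26 and 331 in place of 67. Leaving out 1 library at a time gave 0 to 1 calls in the neocortex and 0 in the hippocampus and in the interaction. The 1 was Atp6v1b2 without cTKO neocortex library 5 (FDR 0.0309), where 133 genes were called in all. Over all genes, leaving out 1 library at a time gave 7 to 133 calls in the neocortex, 15 to 149 in the hippocampus and 5 to 20 in the interaction. Further counts over all genes that differed by more than 1.5 times were 12 with the block and 42 without a filter in the neocortex, 189 with 1 fit of 20 libraries in the hippocampus, and, for the interaction, 26 with DESeq2 and 18 with the block against 8. Between regions, the counts with 1 library left out were 13 to 17 in controls and 12 to 17 in cTKO mice, and a fit of the 10 cTKO libraries alone called 10 in place of 17, without Atp6v0b, Lamp1, Grn, Atp6v0e2, Gusb, Scarb2 and Atp6v1c2, the last of which was below its filter. Library numbers did not meet the criterion for pairing, a correlation above 0.1 in every pair, between genotypes (-0.00912 to 0.221 in the neocortex, where 4 of 5 were best for their own number, and -0.137 to 0.14 in the hippocampus, where 1 was) or between regions in cTKO mice. There, numbers 1, 2 and 3 correlated at 0.345, 0.319 and 0.396, each best for its own number, while numbers 4 and 5, which include the pair of libraries that stood apart, gave -0.0564 and -0.0713, and 0.575 was the highest with another number. With them as a replicate block, 0 genes were called by genotype and in the interaction and 15 between regions in each genotype, of which 14 were called without the block in each. In cTKO mice Atp6v0e2 (FDR 0.0555), Gusb (FDR 0.0824) and Scarb2 (FDR 0.0506) lost their calls with the block and Atp6v1h gained one (FDR 0.0266).

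Single small changes turned in sign when 1 library was left out. Between genotypes in the neocortex the ranges of LogFC were -0.00126 to 0.10 for Atp6v0a1, -0.10 to 0.000689 for Grn, -0.01 to 0.05 for Lamp1, -0.07 to 0.00189 for Npc1 and -0.06 to 0.09 for Tfeb, whose LogFC was -0.00191 without a filter and -0.00651 with the replicate block. In the hippocampus they were -0.03 to 0.16 for Atp6v1g1, -0.01 to 0.07 for Ctsd, -0.05 to 0.03 for Lamp1, -0.05 to 0.02 for Npc1 and -0.02 to 0.10 for Tfeb. Between regions they were -0.07 to 0.0088 for Atp6v1g2 and -0.03 to 0.01 for Psap in controls, and -0.00388 to 0.09 for Atp6v0d1, -0.07 to 0.03 for Ctsb and -0.09 to 0.00687 for Psap in cTKO mice. Ctsl in controls, and Grn, Lamp1 and Atp6v0b in cTKO mice, lost their calls between regions under several alternatives, and Gaa in cTKO mice gained one when a library was left out. The cause was not tested. Depth limits what can be read of Atp6v1c2 and of the 7 genes below the filter.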
